A study of Mus musculus with 6 samples.

Results

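Myosin heavy chains are the motor proteins of the thick filament, and the 10 members described here are the 8 sarcomeric heavy chain genes Myh6, Myh7, Myh7b, Myh1, Myh2, Myh3, Myh4 and Myh8 with the 2 microRNA genes Mir208a and Mir208b, found by symbol among the 24525 gene rows of the deposited table. RNA was sequenced from hearts of mice aged 3 to 6 months. There were 3 wild-type libraries (WT 4, WT 5 and WT 6) and 3 from hearts that the titles call double knockout (DKO 7, DKO 8 and DKO 9). DKO mice, by their labels, had constitutive null alleles of Mbnl1 (Mbnl1-/-), conditional alleles of Mbnl2 (Mbnl2 cond/cond) and 1 copy of Myh6-Cre (Myh6-Cre+/-). This Cre transgene is driven by the promoter of the alpha myosin heavy chain gene, so that Mbnl2 is targeted in cardiomyocytes and not in the other cells of the heart, and the labels do not say whether WT mice carried Cre. The unit is TPM, the abundance of transcripts divided by transcript length and by the library total, so levels may be compared between genes. Values are TPM as mean ± SD of n = 3 libraries per group, and a log2 difference is the DKO mean of log2(TPM + 1) less the WT mean, which understates the change of low genes. How many reads stand behind a TPM is unknown. The labels do not tie each library to an animal of its own, and the p-values therefore cover the spread among these libraries, which may be technical.

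In the heart, force and shortening speed depend on which heavy chain fills the thick filament. Myh6 encodes the fast alpha chain of the adult mouse ventricle and Myh7 the slow beta chain, which predominates before birth and returns under pressure load, low thyroid hormone and other stress. Each carries a microRNA in an intron, Mir208a in Myh6 and Mir208b in Myh7, and another, Mir499, lies in Myh7b. In the adult heart miR-208a is known to favour Myh7 expression under stress. Myh1, Myh2 and Myh4 are the fast chains of adult skeletal muscle, while Myh3 and Myh8 are its embryonic and perinatal chains. MBNL proteins regulate alternative splicing, and their loss of function is central to myotonic dystrophy, in which the heart is affected. The comparison asks how these transcripts differ when both Mbnl genes are targeted.

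On GRCm38 (mm10), Myh6 lies on chromosome 14 (54941921 to 54966927) and Myh7 beside it on chromosome 14 (54970684 to 54994626), both on the minus strand and 3756 bases apart. Mhrt, a long noncoding RNA of the adult heart, is read from the opposite strand (54968678 to 54974349), and 484 of its 1214 exonic bases overlap exons of Myh7. Mir208a (54949060 to 54949142) is in intron 29 of the 38 introns of Myh6, and Mir208b (54975700 to 54975776) in intron 31 of the 40 introns of Myh7. Myh7b is on chromosome 2 (155611212 to 155634307), with Mir499 in its intron 19. The skeletal chains lie in a row on chromosome 11, from Myh3 (start 67078300) through Myh2, Myh1 and Myh4 to Myh8 (end 67308634).

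**Figure D1:**
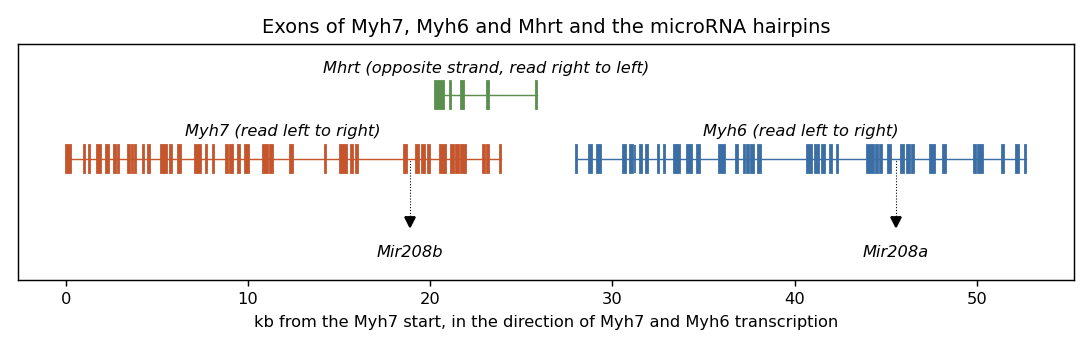
Exons (boxes) of Myh7, Myh6 and Mhrt in GENCODE models, in kb from the Myh7 start along the direction in which Myh7 and Myh6 are transcribed, with triangles at the Mir208b and Mir208a hairpins. Mhrt lies at the boundary of the 2 genes and overlaps the last exons of Myh7.

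The mature products of the intronic microRNAs are shown because Mir208b was listed at 0 in every WT library and above 0 in every DKO library while Mir208a was high in both groups, and the mature forms of both share a seed. Sequences are from RefSeq (GRCm38.p6), 5′ to 3′, with the seed (bases 2 to 8) in capitals.
miR-208a-3p: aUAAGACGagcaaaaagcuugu
miR-208b-3p: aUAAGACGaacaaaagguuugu
miR-499-5p: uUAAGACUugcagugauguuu
Counted from the 5′ end, miR-208a-3p and miR-208b-3p differ at 3 positions, G10A, A16G and C18U, none of them in the seed. Of the 1738 mature mouse microRNAs in the RefSeq table, 2 have this seed, miR-208a-3p and miR-208b-3p themselves. The miR-499-5p seed differs from it at 1 of 7 bases, G8U.

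How well the 2 cardiac chains can be told apart bears on every value of Myh7. Their coding sequences were 91.76% identical over 5800 aligned bases, and 31.7% of the 31-base words of the Myh7 transcript also occurred in Myh6. Reads that fall in shared stretches are divided between the genes by estimate. The longest stretch without a difference ran over 245 coding bases (from base 4246 of Myh6 and base 4240 of Myh7), within the part that codes for the tail. The 60-base window with the most differences, 27, is shown with the differing bases in capitals (from coding base 3226 of Myh6 and 3220 of Myh7), since reads from such windows belong to 1 gene.
Myh6: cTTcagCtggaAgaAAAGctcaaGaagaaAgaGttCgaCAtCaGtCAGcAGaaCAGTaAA
Myh7: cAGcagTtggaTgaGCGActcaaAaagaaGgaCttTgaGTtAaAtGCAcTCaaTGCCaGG
Myh7b shared 0.147% of its 31-base words with the other heavy chains and is the member most easily told apart. Among the skeletal chains Myh1 and Myh2 were 91.12% identical, and 39.0% of the words of Myh1 recurred in another member.

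Myh7 rose in the DKO hearts. It had 44.6, 49.3 and 235 TPM in WT 4, 5 and 6 and 1615, 1397 and 1396 TPM in DKO 7, 8 and 9. All DKO libraries were above all WT libraries, the lowest DKO value being 5.94 times the highest WT value. Means of 110 ± 109 TPM (WT) and 1469 ± 126 TPM (DKO) stood 4.17 apart on the log2 scale (SE 0.59; limma, Benjamini-Hochberg (BH) adjusted p = 0.00960). Among the 14541 genes tested 10.7% were called, 6.51% as higher and 4.22% as lower in DKO. Of the 10 members 5 were tested and Myh7 was called. Mir208b, at 0 in all WT libraries, entered the test only through its DKO values and is not counted against these shares. WT 6 stood 5.00 times above the mean of WT 4 and WT 5, and without it the ratio of means went from 13.4 to 31.3. The call held when each library was left out in turn (limma, BH adjusted p from 7.76e-05 to 0.0399). It was lost with DKO 7, whose genotype tag reads WT, counted as WT (limma, BH adjusted p = 0.510). It was also lost with a term for Y-linked transcripts (log2 difference 4.10). That term takes up DKO 7 and DKO 8, so here and below its fit sets DKO 9 alone against the WT mean. Myh7 moved from rank 3153, 2801 and 545 among all rows in WT 4, 5 and 6 to rank 66, 75 and 74 in DKO 7, 8 and 9.

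Myh6 remained the predominant heavy chain in every library. Its values were 12848, 12733 and 11409 TPM in WT 4, 5 and 6 and 10237, 10885 and 10352 TPM in DKO 7, 8 and 9. The groups did not overlap, which held for 33.0% of all genes tested. The DKO mean was 0.851 of the WT mean (12330 ± 800 and 10492 ± 346 TPM), and the log2 difference of -0.23 (SE 0.08) did not pass the threshold (limma, BH adjusted p = 0.123). None of the 15 alternative fits called it (limma, BH adjusted p from 0.0628 to 0.747). Myh6 ranked between 6 and 10 among all rows in each library.

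Myh7b, the ancient slow-type heavy chain that hosts Mir499, showed no call. It had 59.8, 57.5 and 67.2 TPM in WT 4, 5 and 6 and 45.5, 66.5 and 40.9 TPM in DKO 7, 8 and 9. The groups overlapped, since DKO 8 lay within the WT range (log2 difference -0.29, SE 0.18; limma, BH adjusted p = 0.346). In WT 4 and WT 5 Myh7b was more abundant than Myh7, while in WT 6 and in all DKO libraries Myh7 was the higher of the pair. The order Myh6, Myh7, Myh7b was therefore clear in DKO, whereas in WT the ranges of Myh7 and Myh7b overlapped.

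**Figure D2:**
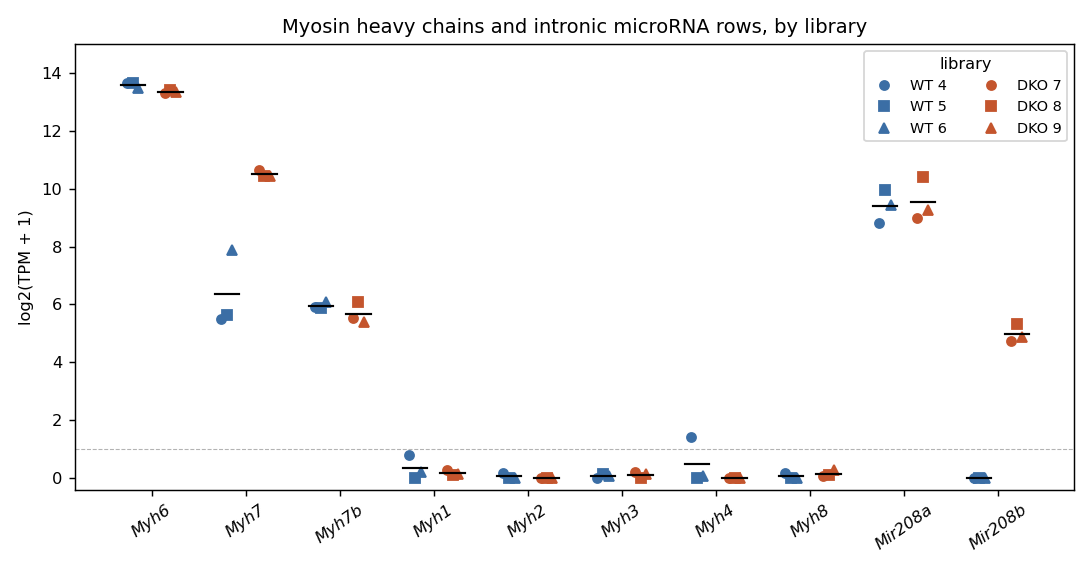
Level of each member in each library as log2(TPM + 1), blue for WT and orange for DKO, with black bars at the group means and a dashed line at 1 TPM. Myh7 and Mir208b are separated between the groups, Myh6 lies near the top in all 6 libraries, and the skeletal chains lie at or near 0.

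The skeletal chains were at or near the limit of what the table lists. Over Myh1, Myh2, Myh3, Myh4 and Myh8, 14 of 30 values were listed at 0 and the highest was 1.70 TPM, of Myh4 in WT 4. None of these 5 genes reached 1 TPM in 3 libraries, so they were not tested. Adult fast chains were highest in WT 4, with Myh1 at 0.743 TPM, Myh2 at 0.135 TPM and Myh4 at 1.70 TPM, and Myh2 and Myh4 were listed at 0 in all DKO libraries. Embryonic Myh3 ranged from 0 to 0.117 TPM in WT and from 0 to 0.173 TPM in DKO. Perinatal Myh8 ranged from 0 to 0.133 TPM in WT and from 0.0560 to 0.213 TPM in DKO. Summed over the 5 genes, the skeletal chains had 2.71, 0.117 and 0.284 TPM in WT 4, 5 and 6 and 0.456, 0.141 and 0.431 TPM in DKO 7, 8 and 9. The groups overlapped (exact two-sided permutation test over libraries, p = 0.9; 3 against 3 libraries cannot go below 0.1).

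The share of Myh7 among the heavy chains puts both cardiac chains on 1 scale within a library. Myh7 made up 0.345%, 0.384% and 2.01% of the summed TPM of the 8 heavy chain genes in WT 4, 5 and 6 and 13.6%, 11.3% and 11.8% in DKO 7, 8 and 9. Myh6 accounted for 97.4% to 99.2% in WT and 86.0% to 88.1% in DKO. The mean share of Myh7 was 0.912% ± 0.948 in WT and 12.2% ± 1.18 in DKO, a difference of 11.3 percentage points, with no overlap between groups (exact two-sided permutation test, p = 0.1, the smallest value 3 against 3 libraries allow). Hence 1 Myh7 transcript stood beside 48.5 to 288 transcripts of Myh6 in WT and beside 6.34 to 7.79 in DKO.

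The sum of the 8 heavy chains differed less. It was 12955.5, 12840 and 11712 TPM in WT 4, 5 and 6 and 11898, 12349 and 11789 TPM in DKO 7, 8 and 9, and the groups overlapped. Mean Myh7 was 1360 TPM higher in DKO and mean Myh6 differed by -1839 TPM, which left a difference of -490.2 TPM in the sum (12502 ± 687 and 12012 ± 297 TPM; exact two-sided permutation test, p = 0.4). The heavy chains made up 1.17% to 1.30% of all TPM in WT and 1.18% to 1.23% in DKO.

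**Figure D3:**
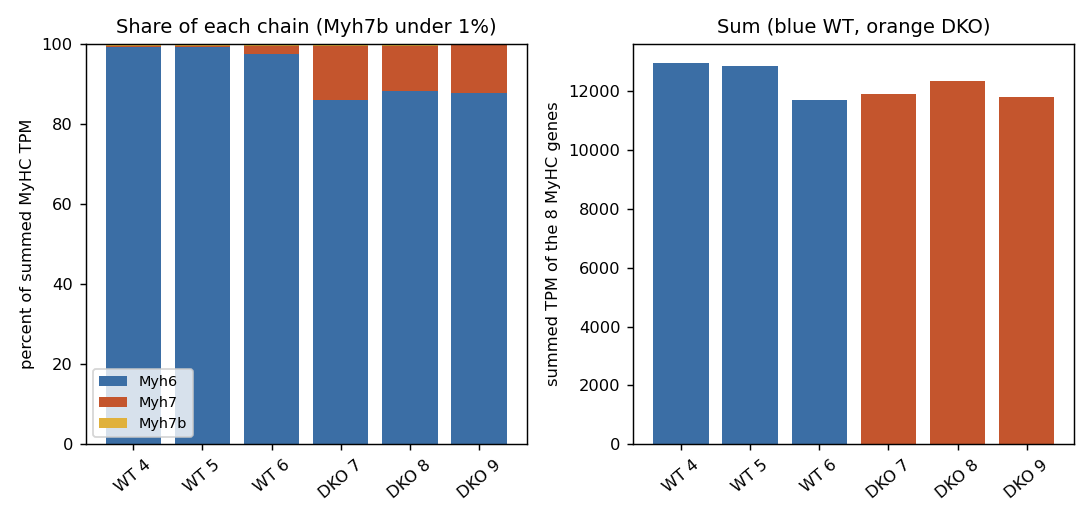
Left, percent of the summed TPM of the 8 myosin heavy chain (MyHC) genes taken by Myh6 (blue), Myh7 (orange) and Myh7b (yellow, under 1% and hardly visible) in each library. Right, the summed TPM itself, with bars from 0, where WT (11712 to 12955.5) and DKO (11789 to 12349) overlap while the Myh7 share (left) does not.

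Rows named for the intronic microRNAs record fragments of long RNA libraries that cover a hairpin of 77 to 83 bases, hardly longer than 1 read of 75 bases, and not the mature microRNA. Length scaling of such short features gives large and unsteady TPM, and fragments of the host's unspliced RNA can count here. Mir208b was listed at 0 in WT 4, 5 and 6 and had 25.9, 39.0 and 28.6 TPM in DKO 7, 8 and 9. It was listed above 0 in the same libraries in which its host Myh7 was high, and it was not listed above 0 in WT 6 in spite of 235 TPM of Myh7. Mir208b passed the expression filter through its DKO values alone and so had to differ. No ratio to a group at 0 and no test of the difference is given. In DKO its TPM was 1.60%, 2.79% and 2.05% of that of Myh7 in replicates 7, 8 and 9.

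Mir208a, in the intron of Myh6, varied within groups more than between them. It had 453, 1000.1 and 686 TPM in WT 4, 5 and 6 and 507, 1361 and 615 TPM in DKO 7, 8 and 9, and the groups overlapped. It was not called (log2 difference 0.15, SE 0.42; limma, BH adjusted p = 0.859), and the sign turned without WT 4 or DKO 8. Relative to Myh6 it was 3.53% to 7.85% in WT and 4.95% to 12.5% in DKO. Mir499 was listed at 0 in WT 4, DKO 7 and DKO 8 and had 43.8, 23.8 and 14.7 TPM in WT 5, WT 6 and DKO 9, again with overlapping groups (limma, BH adjusted p = 0.486).

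Mhrt, like 33.0% of all genes tested, had groups that did not overlap. It was lower in each DKO library without passing the threshold. It had 401, 416 and 335 TPM in WT 4, 5 and 6 and 186, 320 and 272 TPM in DKO 7, 8 and 9 (log2 difference -0.59, SE 0.20; limma, BH adjusted p = 0.108), with no call in any of 15 alternative fits. Mhrt was 8.98, 8.43 and 1.42 times as abundant as Myh7 in WT 4, 5 and 6 and 0.115, 0.229 and 0.195 times in DKO 7, 8 and 9. Libraries were strand-specific per the labels, but whether strand was used in counting is not given in the sources used here, and without strand the overlapping bases of Mhrt and Myh7 cannot be told apart.

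**Figure D4:**
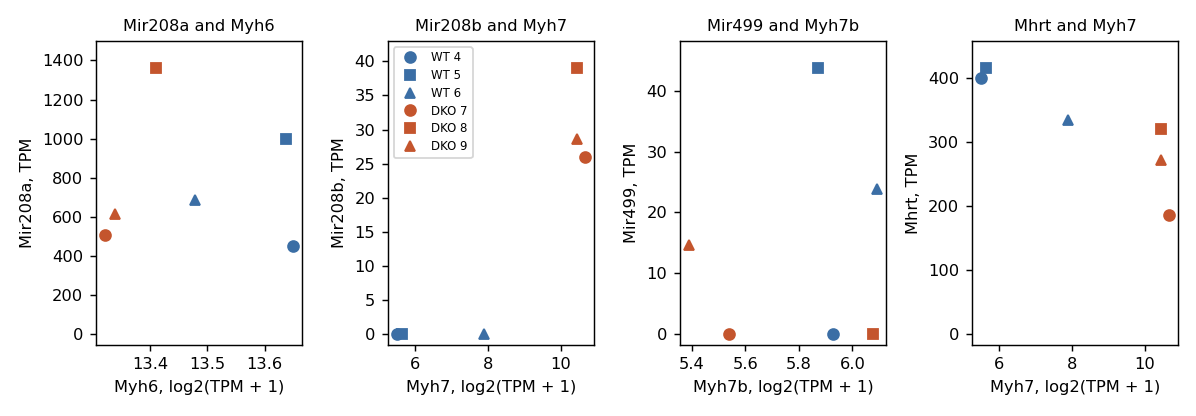
TPM of Mir208a, Mir208b, Mir499 and Mhrt in each library (vertical axes) against log2(TPM + 1) of Myh6, Myh7, Myh7b and Myh7 (horizontal axes), blue for WT and orange for DKO. Mir208b is at 0 in the 3 WT libraries and at 25.9 to 39.0 TPM in the 3 DKO libraries, while Mir208a and Mir499 mix the groups.

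The promoters of the neighbours Myh6 and Myh7 are shown because the pair lies side by side and Myh7 alone passed the test. Each is the 250 bases before a start in the RefSeq promoter table (GRCm38.p6), 54966607 for Myh6 and 54994626 for Myh7, on the minus strand of chromosome 14. For Myh6 this start lies inside the gene span given above, which reaches 54966927, so that the window is before 1 of its annotated starts and not before the outermost. Capitals mark matches to CATTCC on either strand, the core of the MCAT element bound by TEAD factors, which is known to act in muscle promoters.
Myh6 (chr14:54966608-54966857): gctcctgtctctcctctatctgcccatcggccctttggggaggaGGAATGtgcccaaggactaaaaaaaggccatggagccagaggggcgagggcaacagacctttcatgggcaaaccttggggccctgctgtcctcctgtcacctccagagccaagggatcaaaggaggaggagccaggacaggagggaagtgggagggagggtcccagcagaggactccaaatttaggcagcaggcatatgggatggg
Myh7 (chr14:54994627-54994876): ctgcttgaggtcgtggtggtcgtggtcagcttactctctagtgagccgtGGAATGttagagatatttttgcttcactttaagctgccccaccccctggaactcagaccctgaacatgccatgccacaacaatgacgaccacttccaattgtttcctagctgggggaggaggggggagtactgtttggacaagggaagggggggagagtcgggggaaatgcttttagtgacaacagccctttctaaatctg
Each held 1 match, beginning 206 bases before this start of Myh6 and 201 bases before that of Myh7, as read on the printed strand. Another start of Myh7 in that table (54994549) had none in its 250 bases. Such a match was present in 12.6% of 32851 promoters of this length. These are matches of letters and no binding was measured.

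Factors known to act on these promoters mostly did not pass the test. Of 32 transcription factors and cofactors tested, 5 were higher in DKO and 0 lower, with a median log2 difference of 0.08 beside 0.033 over all genes tested. The shares over all genes tested were 6.51% higher and 4.22% lower. Vgll2, a muscle cofactor of TEAD factors, had 0.539, 0 and 0.456 TPM in WT 4, 5 and 6 and 9.98, 4.82 and 3.94 TPM in DKO 7, 8 and 9, every DKO library being above every WT library. Like Mir208b, it entered the test only through its DKO values, so no test is given and its call is no support for the count. Purb, a single-strand binding protein known to restrain Myh6, rose from 37.3 ± 1.22 to 49.6 ± 4.53 TPM (limma, BH adjusted p = 0.0373). The cardiac factor Tbx20 rose from 107 ± 9.58 to 150.3 ± 11.8 TPM, the histone deacetylase Hdac9 from 25.1 ± 0.764 to 34.8 ± 4.05 TPM and the calcineurin-dependent factor Nfatc2 from 20.1 ± 3.25 to 30.5 ± 3.23 TPM. The TEAD factor most abundant here, Tead1, was 91.7 ± 6.39 in WT and 84.8 ± 4.24 TPM in DKO (adjusted p = 0.419, limma with BH). The number called in this list was 2 without WT 4 or WT 5, 1 without WT 6, DKO 8 or DKO 9, 4 without DKO 7 and 1 in the fit without trend. Each of these numbers includes Vgll2, which was the only gene called wherever the number was 1. Over all genes tested, calls went from 1560 to between 622 and 877 without 1 library and to 1082 in the fit without trend. Purb, Hdac9 and Nfatc2 each kept their call in 1 of the 6 fits that left out a library and Tbx20 in 2. With the term for Y-linked transcripts 0 of the genes in this list, and in the lists of the thyroid axis, miR-208 targets, thick filament, folding and turnover, other heavy chains and slow or fetal isoforms, were called, and likewise 0 with DKO 7 counted as WT.

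Thyroid hormone activates Myh6 and represses Myh7. Of 14 tested genes of this axis, 1 was higher and 0 lower (median log2 difference -0.016), beside 6.51% and 4.22% of all genes tested. The one was Dio2, the deiodinase that converts the prohormone to active hormone inside cells, with 1.33, 0.762 and 2.13 TPM in WT 4, 5 and 6 and 12.2, 11.1 and 9.26 TPM in DKO 7, 8 and 9. The DKO libraries were all above the WT libraries (log2 difference 2.33). Only 2 WT libraries reached 1 TPM, so that Dio2 too passed the filter through DKO. No test is therefore given, and its call is no support for the count. The call was also lost with the term for Y-linked transcripts and with DKO 7 as WT. The hormone receptors Thra (94.5 ± 2.52 and 112 ± 12.1 TPM) and Thrb (19.9 ± 1.50 and 20.1 ± 2.62 TPM) were not called. Of 5 tested reported targets of miR-208, Purb was the 1 called, as higher. Med13, the Mediator subunit through which miR-208a is known to act on thyroid hormone signalling, was 40.1 ± 2.89 in WT and 36.8 ± 1.82 TPM in DKO (adjusted p = 0.441, limma with BH), and Sox6 was 13.6 ± 0.514 and 12.98 ± 1.46 TPM (limma, BH adjusted p = 0.753).

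Partners of myosin in the thick filament gave 5 higher and 1 lower of 16 tested (median log2 difference 0.18). The shares over all genes tested were 6.51% and 4.22%. The M-band crosslinkers Myom1 and Myom2 rose from 804 ± 26.0 to 1122 ± 34.4 TPM and from 745 ± 64.5 to 1200.1 ± 97.5 TPM, and Myom3 from 1.25 ± 0.112 to 3.40 ± 0.227 TPM, the last lost without DKO 8 or DKO 9 (limma, BH adjusted p = 0.0620 and 0.0611), where 3 of the list were higher. The light chain Myl1 rose from 70.4 ± 14.5 to 173 ± 30.0 TPM and titin, Ttn, from 2162 ± 35.8 to 2626 ± 145 TPM, the latter in no fit that left out a library (limma, BH adjusted p = 0.0559 to 0.116). Mybpc2, the fast-type myosin-binding protein C, fell from 12.2 ± 3.15 to 2.56 ± 1.68 TPM, a call lost without WT 4, WT 6 or DKO 9 (limma, BH adjusted p up to 0.0688). Ventricular light chains were not called. Myl2 was 19283 ± 673 in WT and 19225 ± 1623 TPM in DKO (adjusted p = 0.974, limma with BH), and Myl3 had an adjusted p of 0.316.

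Genes of myosin folding and turnover gave 1 higher and 1 lower of 13 tested, beside 6.51% and 4.22% of all genes tested. The sarcomeric ubiquitin ligases Trim55 and Trim54 went opposite ways, Trim55 from 119 ± 12.1 to 174 ± 6.26 TPM (limma, BH adjusted p = 0.0141) and Trim54 from 207 ± 38.6 to 125 ± 8.24 TPM (limma, BH adjusted p = 0.0261, lost in 5 of the 6 fits that left out a library). The myosin chaperone Unc45b and the myosin methyltransferase Smyd1 had adjusted p of 0.208 and 0.654 (limma with BH) and were not called. Among heavy chains outside the sarcomere, nonmuscle Myh14 fell from 50.4 ± 3.80 to 28.6 ± 0.575 TPM (log2 difference -0.80, SE 0.08; limma, BH adjusted p = 0.00448). This call was lost with the term for Y-linked transcripts (limma, BH adjusted p = 0.0702) and with DKO 7 as WT (0.501). Smooth muscle Myh11 was 31.4 ± 7.45 in WT and 18.6 ± 3.50 TPM in DKO (adjusted p = 0.0670, limma with BH), and nonmuscle Myh10 (0.122) and Myh9 (0.822) were not called.

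The list of slow skeletal and fetal isoforms gave 3 higher and 1 lower of 10 tested, not all in the direction of Myh7. Of all genes tested, 6.51% were called higher and 4.22% lower. Casq1 and Atp2a1 of this list are also among the fast skeletal muscle markers below. The call of Casq1 is counted in both and is therefore not particular to slow or fetal isoforms. Acta2 is counted again among the smooth muscle markers, and Myl4 and Myl7 are also thick filament partners and atrial markers. Myl1 and Mybpc2 are counted both among thick filament partners and among fast skeletal muscle markers. Slow troponin Tnnt1 rose from 13.5 ± 5.09 to 35.8 ± 5.10 TPM, calsequestrin Casq1 from 9.40 ± 5.49 to 58.0 ± 7.28 TPM and smooth muscle actin Acta2 from 66.5 ± 11.1 to 228 ± 63.3 TPM. Skeletal actin Acta1, another gene of the fetal heart, fell from 682 ± 308 to 164 ± 21.7 TPM (limma, BH adjusted p = 0.0102). As with Myh7, WT 6 had the highest WT values of Casq1 (15.7 TPM against 6.36 and 6.09) and Tnnt1 (19.4 TPM against 10.4 and 10.7). Calls of Tnnt1 were lost without WT 5 or DKO 8 (limma, BH adjusted p = 0.0508 and 0.0635).

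**Figure D5:**
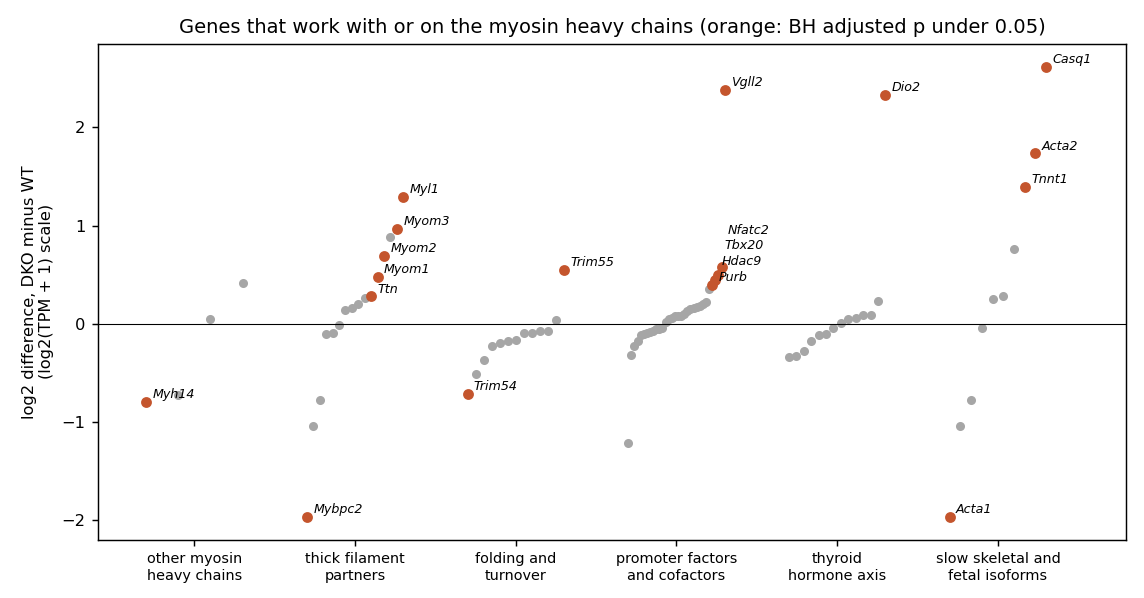
Log2 difference (DKO minus WT, log2(TPM + 1) scale) of each tested gene in 6 lists, 1 point per gene, orange with a name where the BH adjusted p (limma) was under 0.05 and grey otherwise. Calls go both ways among thick filament partners, turnover genes and slow or fetal isoforms, and upward only among the promoter factors (5 of 32) and in the thyroid axis (1 of 14). These counts include Vgll2 and Dio2, which passed the filter only through their DKO values. Of all genes tested, 6.51% were called higher and 4.22% lower.

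The genes whose course over the 6 libraries was closest to that of Myh7 were found by the root mean square distance between log2(TPM + 1) profiles, each centred on its WT mean. They were the metalloproteinase inhibitor Timp1 (distance 0.88), the matrix genes Cilp (0.98) and Comp (1.17), Casq1 (1.17) and the chitinase-like Chil1 (1.19). With this centring the size of the DKO rise weighs most, and these distances were larger than those of the genes nearest to Myh6. Chil1, at 0 to 0.452 TPM in WT, entered the test only through its DKO values. In WT 6 the centred value was 1.53 for Myh7, 0.77 for Timp1, 0.61 for Cilp and 0.81 for Casq1, these genes being highest among WT in that library. Comp was highest among WT in WT 4 (0.20 against 0.11 in WT 6) and Chil1 in WT 5 (0.18 against 0.17). Among the closest to Myh6 were Map7d1 (0.025), Vapb (0.032), Slc5a6 (0.032) and the succinate dehydrogenase subunit Sdhb (0.032), and these were not called with all 6 libraries.

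Markers of other cells and tissue regions were summed beside these results. Each count of calls with all 6 libraries stands beside 6.51% higher and 4.22% lower over all genes tested. Counts without 1 library stand beside fewer calls over all genes tested, 622 to 877 in place of 1560. Ventricular cardiomyocyte markers summed to 62762 to 65190 TPM in WT and 62541 to 63893 TPM in DKO, with 2 of 10 lower (Ryr2, Tnni3; 1 without WT 4 or WT 5). Atrial markers, which matter since atria express Myh6, summed to 6848, 501 and 1818 TPM in WT 4, 5 and 6 and to 2570, 4267 and 4283 TPM in DKO 7, 8 and 9, with 0 higher and 2 lower of 10, and 0 of 10 called when any 1 library was left out. Nppa, the atrial natriuretic peptide, which the stressed ventricle also expresses, made up most of the DKO sums, with 4216, 242 and 957 TPM in WT 4, 5 and 6 and 2188, 3855 and 3789 TPM in DKO 7, 8 and 9. Without it the atrial sum was 2632, 260 and 861 TPM in WT 4, 5 and 6 and 382, 412 and 493 TPM in DKO 7, 8 and 9, with overlapping groups. Myl7, an atrial light chain, had 932, 39.4 and 320 TPM in WT 4, 5 and 6 and 82.9 to 172 TPM in DKO. Fast skeletal muscle markers summed to 71.7 to 119 TPM in WT and 215 to 270 TPM in DKO, with 2 of 7 tested higher (Casq1, Myl1) and 1 lower (Mybpc2). Myl1 gave most of each sum (54.0 to 81.3 TPM in WT, 139 to 191 TPM in DKO). Casq1 gave most of the rest in DKO (50.3 to 64.7 TPM). Actn3, Tnnt3, Tnni2, Tnnc2, Pvalb and Ryr1 had at most 5.50 TPM in any WT and 2.84 TPM in any DKO library. Myog, Myf5 and Pax7 were listed at 0 in all libraries. Fibroblast markers summed to 1845 to 1917 TPM in WT and 2010 to 2501 TPM in DKO, with 6 of 10 higher (3 without WT 4, WT 5 or DKO 8); smooth muscle markers to 746 to 796 and 719 to 899 TPM (1 of 9 higher, 2 lower); endothelial markers to 1696 to 2129 and 1581 to 1632 TPM (2 of 7 lower, and 0 without any library other than WT 5). Erythroid transcripts summed to 6042 to 38458 TPM in WT and 1781 to 6763 TPM in DKO, with 0 of 5 called (2 lower without DKO 7). In bulk tissue, fewer cells of a type and less RNA per cell cannot be told apart, and the part of these markers in the heavy chain results was not tested.

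Of the targeted genes, Mbnl1 fell from 155 ± 8.98 to 106 ± 3.16 TPM (limma, BH adjusted p = 0.00673) and Mbnl2 rose from 169 ± 20.1 to 237 ± 9.46 TPM (limma, BH adjusted p = 0.0232), a call lost in 5 of the 6 fits that left out a library. Both calls were lost with DKO 7 as WT (limma, BH adjusted p = 0.529 and 0.501). They were also lost with the term for Y-linked transcripts, where DKO 9 alone stands against WT. Mbnl1 had 161, 160 and 145 TPM in WT 4, 5 and 6 and 102, 108 and 107 TPM in DKO 7, 8 and 9. Gene sums also take in exons that a deletion leaves and, for Mbnl2, RNA of cells without Cre, so the level of neither gene checks the deletion. The genotype tag of DKO 7 reads WT, against its title and source name. With this library, which had 1615 TPM of Myh7, moved to WT, the log2 difference of Myh7 was 3.02 with no call (limma, BH adjusted p = 0.510). The libraries also differed in Y-linked transcripts, present in WT 4, 5 and 6 and DKO 9 and under 1 TPM in DKO 7 and DKO 8. Xist went the other way, with 152 and 174 TPM in DKO 7 and DKO 8 and at most 0.401 TPM in the others. No WT library was like DKO 7 and DKO 8 here, so this difference is partly confounded with group. Myh7 was 1396 TPM in DKO 9, 1615 TPM in DKO 7 and 1397 TPM in DKO 8. A fit with a term for Y-linked transcripts gave 4.10. This is the log2 difference of DKO 9 alone from the WT mean, since the term takes up DKO 7 and DKO 8. The libraries differed in beta-globin too, rows that belong to alternative haplotypes. Hbb-bs had 14182 and 5293 TPM in WT 5 and WT 6, 1436 and 1690 TPM in WT 4 and DKO 7, and 1.15 and 0.892 TPM in DKO 8 and DKO 9. Hbb-b1 had 7.80 and 1.88 TPM in WT 5 and WT 6 and 1296 to 1835 TPM in the others. The part of this difference in the heavy chain results was not tested.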

How the data were processed

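The authors deposited 1 table of TPM, 1 value per gene and library. The tools listed in the submitters' processing notes are bcl2fastq and kallisto 0.44.0, and the build is mm10. The annotation, the summing of transcripts into genes and the use of strand were not stated. TPM shifts with abundant RNAs, and kallisto divides reads shared by near-identical genes by estimate. Groups follow the titles. A gene was tested if 3 or more libraries had 1 TPM or more, which left 14541 genes. The test was limma 3.58.1 (lmFit and eBayes, trend on) on log2(TPM + 1), run under R 4.3.3, with BH adjustment over these genes and a threshold of 0.05; the script was tested on simulated data. Shares and sums were compared by exact permutation tests (scipy 1.17.1). Gene models and sequences are from GENCODE and RefSeq on GRCm38. Words of 31 bases, the default of kallisto, were counted in GENCODE transcripts.

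Alternatives were a pseudocount of 0.1, no filter, a 5 TPM filter, scaling by median ratio or by quantiles, totals without haemoglobin, structural and short RNA, eBayes without trend, a term for Y-linked transcripts, replicate 7 as WT, and each library left out. List counts without WT 4, WT 6 or DKO 7 and the atrial sum without Nppa were added after seeing the data. The members and lists were chosen with earlier results of these data known. The rule for named genes took all members, the targeted genes, Mhrt, Mir499, the 4 genes of smallest p in each list, markers at 0 and the 5 nearest profiles of Myh6 and Myh7; the text gives those it turns on, and 1 of the nearest profiles of Myh6 is not reported here. Ttn, Nfatc2, Tead1, Thra, Thrb, Myl2, Myl3, Myl7, Unc45b, Smyd1, Nppa, Atp2a1 and Hbb-b1 were named for their role or after their values were seen.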

Additional observations from a re-analysis of the deposited data

How the results depend on the processing

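The number of genes called, 1560 with all 6 libraries, was 92 with a term for Y-linked transcripts, 1 with replicate 7 counted as WT, and 622 to 877 when 1 library was left out; fits with 5 libraries have fewer degrees of freedom. The Myh7 log2 difference lay between 3.02 and 4.94 over 15 alternatives and passed the threshold in 13 of them; it did not pass with the term for Y-linked transcripts (4.10; limma, BH adjusted p = 0.118) or with replicate 7 as WT (3.02; 0.510). Leaving out 1 library gave 3.75 to 4.94. Myh6 lay between -0.29 and -0.15 and passed in 0 of 15. The difference in Myh7 share was 10.7 to 11.9 percentage points without 1 library, 7.50 with replicate 7 as WT and 11.4 over Myh6 and Myh7 alone. The difference in summed heavy chain TPM kept its sign, from -885 to -264 TPM without 1 library.

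Signs turned for genes that were not called. With the term for Y-linked transcripts Mir208a gave -0.14, Mir499 0.60, Myh9 -0.13 and Sox6 0.057, and with replicate 7 as WT Sox6 gave 0.075. Leaving out 1 library gave -0.28 to 0.43 for Mir208a (-0.14 without WT 4, -0.28 without DKO 8), -0.034 to 0.13 for Myh9 (-0.021 without WT 4, -0.034 without DKO 8), -0.13 to 0.015 for Sox6 (0.015 without DKO 7) and -2.03 to 0.23 for Myl7 (0.23 without WT 4). The cause was not tested. Totals without short RNA leave no microRNA row to fit. No paired analysis was possible because WT and DKO share no replicate numbers. Depth is unknown from TPM, which limits the skeletal chains most.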
